A study of Arabidopsis thaliana with 4 samples.

Results

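The genes described here are the sugar carriers of the plasma membrane and tonoplast in 3 families of Arabidopsis thaliana, the SWEET, SUC and STP transporters, together with the cell wall invertases. They were chosen by locus code: 44 codes were listed, and 43 had a row of their own among the 34288 loci of the deposited table (17 SWEET, 9 SUC, 13 STP and 4 CWINV genes). STP14 (AT1G77210) was found only in a locus joined with AT1G77215 and is given apart. All 4 samples were of the laboratory accession Col-0, grown in long days at 22 °C, with no mutation or treatment named. They were the roots of plants aged 2 weeks on MS plates, siliques (the pods with the developing seeds) and flowers of plants aged 5 weeks in soil, and leaves, which the growth protocol calls the aerial part of the seedlings aged 2 weeks. Each organ is represented by 1 RNA library. Replicate error is therefore unknown, there are no tests, and all folds compare single libraries. Roots share age and medium with leaves, and siliques share both with flowers. In siliques against leaves and flowers against leaves the organ cannot be told apart from age and medium.

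Plants make sugar in mature leaves, the source organ, and move it as sucrose through the phloem to sinks such as roots, flowers and developing seeds. SWEET proteins let sugars cross membranes passively, along their gradient. SUC proteins carry sucrose together with protons, above all into the phloem, and STP proteins take up hexoses together with protons. Cell wall invertases split sucrose in the apoplast into glucose and fructose, which STP proteins can then import, so that invertase and hexose carriers form one route of unloading in sinks and SUC proteins another.

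Levels are FPKM values as the authors deposited them, by definition fragment numbers divided by transcript length and by library size. They can be compared between genes because they are per length. How the libraries were scaled to each other is not stated. Differences are in log2(FPKM + 1), which understates those of low genes. A gene is called higher or lower at a difference of at least 1 on this scale (2-fold). Positions are those of the deposited table, on TAIR10. All 172 values of the 43 genes had a usable status. The 37 genes that reached 1 FPKM in at least 1 organ were compared. The other 6 (SWEET6, SUC6, SUC8, SUC9, STP10 and CWINV5) stayed at or below 0.522 FPKM everywhere, and SWEET6 was listed at 0 in all 4 organs. A gene passes that filter through the organ in which it is high, so counts among the 37 are given only beside the share of all 23477 compared loci called by the same rule. The loci holding a single fragment put 1 FPKM at 151 to 156 fragments per kilobase in the 4 libraries. This range comes from the deposited values, whose scaling is not stated, so it cannot show whether sequencing depth was alike. The authors' intervals around each value were wide: their lower end was above 0 for 12 of the 172 values, and the sources used here do not give their confidence level.

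The columns of the deposited table carry the letters R, S, F and L, which were read as the first letters of the organ names in the labels. This reading was set against marker genes, whose list was chosen with earlier results of these data known. All 4 root markers were highest in roots, with a summed level of 711 FPKM there and at most 17.2 FPKM in another organ. All 4 seed coat markers were highest in siliques. All 6 pollen markers and all 5 tapetum markers were highest in flowers. Of the 4 leaf markers 3 were highest in leaves, and RBCS3B, a Rubisco small subunit, was highest in siliques.

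At 1 FPKM or more stood 16 of the 43 genes in roots, 30 in siliques, 34 in flowers and 23 in leaves, which is 37.2%, 69.8%, 79.1% and 53.5%. Over all 34071 loci with a usable status the shares were 56.3% in roots, 57.2% in siliques, 60.1% in flowers and 52.4% in leaves. Flowers and siliques thus held more of these genes than the source organ, and roots fewer. At 10 FPKM or more stood 13 of the 43 genes in roots, 20 in siliques, 28 in flowers and 13 in leaves, which is 30.2%, 46.5%, 65.1% and 30.2%. Over the same 34071 loci the shares were 33.6% in roots, 32.9% in siliques, 36.1% in flowers and 29.5% in leaves. At this level flowers and siliques again stood above the share of all loci, and roots and leaves were near it. By the deposited values, 6 of the 37 compared genes had their highest level in roots (39.3% of all compared loci did), 8 in siliques (15.4%), 17 in flowers (31.6%) and 6 in leaves (13.7%).

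**Figure D1:**
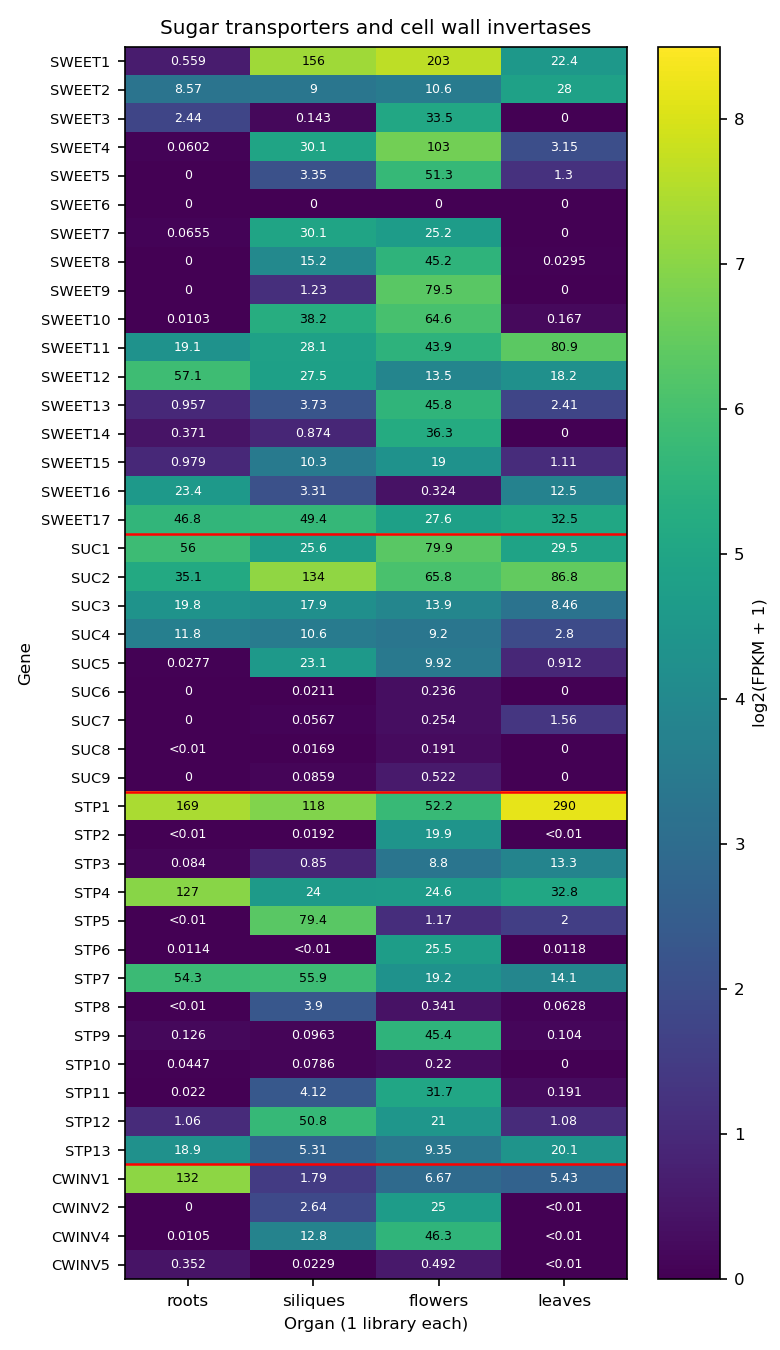
FPKM of the 43 genes (rows, red lines between the SWEET, SUC, STP and CWINV families) in the 4 organs (columns, 1 library each), with the value printed in each cell and log2(FPKM + 1) as colour. STP1 in leaves (290.0 FPKM) and SWEET1 in flowers (203 FPKM) are the brightest cells, and most rows are dark in roots.

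Each organ counted as a sink was set against leaves, the organ counted as the source. The 3 comparisons share the leaf library. The 4 leaf markers, genes of photosynthesis, summed to 96.8 FPKM in roots, 10468 FPKM in siliques, 5182 FPKM in flowers and 16292 FPKM in leaves. Siliques and flowers thus also held RNA of photosynthesis, and sink and source are names of whole organs here. In roots 7 of the 37 genes were higher (18.9%, against 23.6% of all compared loci) and 9 lower (24.3%, against 13.4%). The median difference of these genes was -0.01, and that of all compared loci 0.34. In siliques 16 were higher (43.2%, against 16.9%) and 8 lower (21.6%, against 8.4%), with medians of 0.91 for these genes and 0.12 for all compared loci. In flowers 21 were higher (56.8%, against 21.6%) and 5 lower (13.5%, against 7.79%), with medians of 2.51 and 0.38. In siliques and flowers both shares thus stood above those of all loci, while in roots only the share of lower genes stood above that of all loci. At 4-fold, 1 gene was higher and 3 lower in roots (9.09% and 7.42% of all compared loci), 12 higher and 1 lower in siliques (7.07% and 2.77%), and 19 higher and 2 lower in flowers (8.09% and 2.42%). Without the filter on low values the same numbers of genes were called among all 43. This was fixed in advance, because genes under 1 FPKM everywhere cannot reach a 2-fold difference on FPKM + 1. The medians in flowers were then 0.66 for the 43 genes and 0.14 for 34071 loci.

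Median-of-ratios scaling brings the median of all compared loci to 0.00 in roots over leaves, -0.01 in siliques over leaves and 0.00 in flowers over leaves. On that scale 6 of the 37 genes were higher and 12 lower in roots (15.5% and 17.3% of all compared loci). In siliques 16 were higher and 8 lower (14.6% and 11.7%), and in flowers 20 and 7 (14.7% and 13.1%). The higher calls thus made up 33.3% of all calls in roots in place of 43.8% as deposited. Over all compared loci that share was 47.3% in place of 63.7%. With the authors' intervals also required not to overlap, 0 of the 37 genes were called in roots (0.677% of all compared loci were higher and 0.733% lower), 0 in flowers (0.562% and 0.175%) and 1 higher and 0 lower in siliques (0.43% and 0.145%). That gene was STP5.

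**Figure D2:**
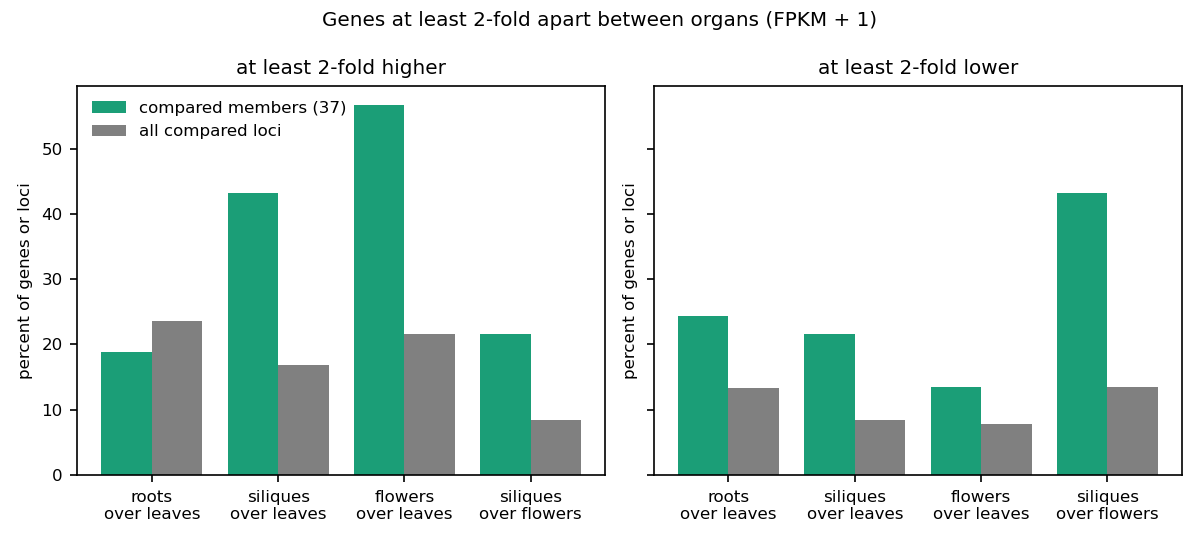
Percent of the 37 compared genes (green) and of all compared loci (grey) at least 2-fold higher (left) or lower (right) on FPKM + 1 in 4 comparisons of single libraries. In flowers over leaves 56.8% of the genes were higher against 21.6% of all compared loci, and in roots over leaves 18.9% against 23.6%.

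The sinks seldom shared a direction, about as seldom as over all loci. SUC4 (AT1G09960, chr1:3244213-3247200), a sucrose carrier of the tonoplast, was higher in all 3 sink organs than in leaves, with 11.8 FPKM in roots, 10.6 FPKM in siliques and 9.20 FPKM in flowers against 2.80 FPKM in leaves. With a pseudocount of 5 FPKM its difference in flowers was 0.86 and no longer called, which leaves 0 genes higher in all 3. Of all compared loci 3.36% were higher in all 3. SWEET2 (AT3G14770, chr3:4957334-4959704), a tonoplast carrier known to limit sugar loss from roots, was lower in all 3, with 8.57, 9.0 and 10.6 FPKM in roots, siliques and flowers against 28.0 FPKM in leaves. SUC7 was the other gene lower in all 3, at a low level described below, and 2.73% of all compared loci did so. On the other hand 28 of the 37 genes (75.7%, against 44.7% of all compared loci) were higher in at least 1 sink organ than in leaves.

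**Figure D3:**
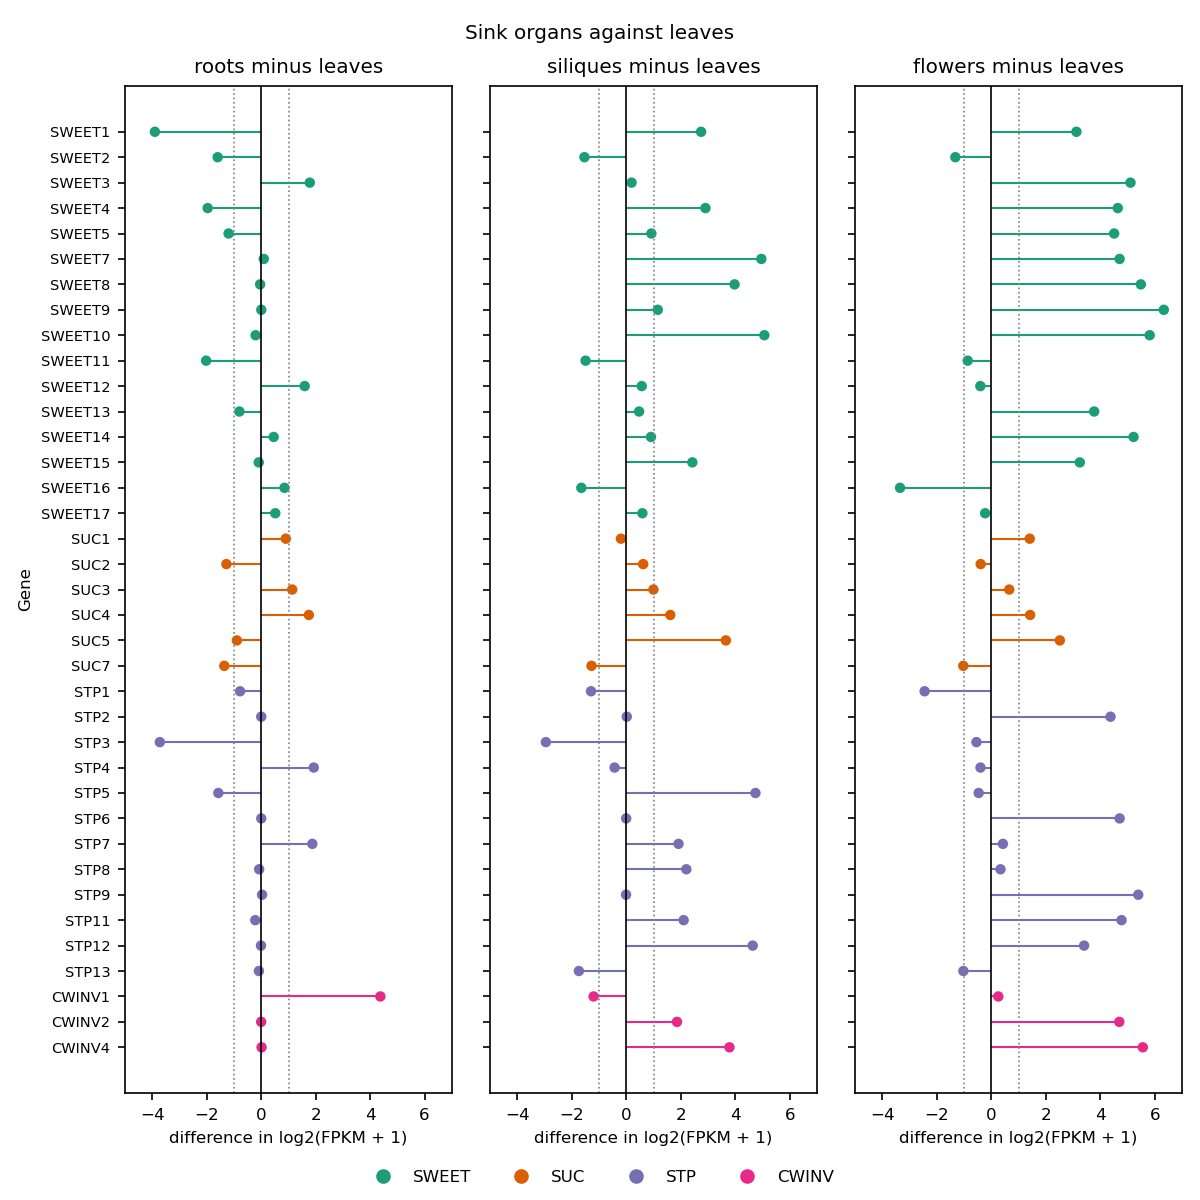
Difference in log2(FPKM + 1) of roots, siliques and flowers (3 panels) minus leaves for the 37 compared genes, coloured by family, with dotted lines at a 2-fold difference. CWINV1 (4.37) reaches farthest to the right in roots, SWEET10 (5.07) in siliques and SWEET9 (6.33) in flowers.

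The SWEET family was highest in flowers in its sum. Summed over the 17 genes its level was 160 FPKM in roots, 406 FPKM in siliques, 802 FPKM in flowers and 203 FPKM in leaves. The ratio over leaves was 0.791 in roots, 2.0 in siliques and 3.95 in flowers. With median-of-ratios scaling the sums were 142, 425 and 692 FPKM in these sinks against 251 FPKM in leaves, so the ratios were smaller. Of the 16 compared SWEET genes 11 were at least 4-fold higher in flowers than in leaves (8.09% of all compared loci were) and 1 at least 4-fold lower (2.42%). Which SWEET carried the sum differed by organ: SWEET12 (AT5G23660, chr5:7971651-7973925) made up 35.6% in roots, SWEET1 38.3% in siliques and 25.3% in flowers, and SWEET11 39.9% in leaves.

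The SWEET proteins fall into 4 clades, of which the first and second carry mainly hexoses, the third sucrose, and the fourth, on the tonoplast, fructose. In clade I, SWEET1 (AT1G21460, chr1:7511850-7513361), a glucose uniporter, had 0.559 FPKM in roots, 156 FPKM in siliques, 203 FPKM in flowers and 22.4 FPKM in leaves. It was the highest SWEET in siliques and flowers and below 1 FPKM in roots, with differences from leaves of -3.91 in roots, 2.74 in siliques and 3.12 in flowers. SWEET3 (AT5G53190, chr5:21572251-21574329) had 2.44, 0.143 and 33.5 FPKM in roots, siliques and flowers and was listed at 0 in leaves. In clade II the summed level was 0.126 FPKM in roots, 78.7 FPKM in siliques, 224 FPKM in flowers and 4.48 FPKM in leaves, so this clade stood mainly in the reproductive organs. Its hexose carrier SWEET4 (AT3G28007, chr3:10408092-10409745) had 0.0602, 30.1 and 103 FPKM in roots, siliques and flowers against 3.15 FPKM in leaves. SWEET7 (AT4G10850, chr4:6674998-6676981) had 0.0655, 30.1 and 25.2 FPKM in the same sinks and was listed at 0 in leaves. SWEET8 (AT5G40260, chr5:16089757-16091753), which is needed for the pollen wall, was listed at 0 in roots and had 15.2 FPKM in siliques and 45.2 FPKM in flowers against 0.0295 FPKM in leaves. These 3 genes were thus high in siliques as well as flowers. SWEET5 (AT5G62850, chr5:25229923-25231838), a gene of the vegetative cell of pollen, was listed at 0 in roots and had 3.35 FPKM in siliques and 51.3 FPKM in flowers against 1.30 FPKM in leaves.

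Clade III holds the sucrose carriers of phloem loading, nectar secretion and seed filling. SWEET11 and SWEET12, which act together in releasing sucrose from leaf phloem parenchyma for loading, were highest in different organs, SWEET11 in leaves and SWEET12 in roots. SWEET11 (AT3G48740, chr3:18052466-18054755) had 19.1 FPKM in roots, 28.1 FPKM in siliques, 43.9 FPKM in flowers and 80.9 FPKM in leaves. SWEET12 had 57.1 FPKM in roots, 27.5 FPKM in siliques, 13.5 FPKM in flowers and 18.2 FPKM in leaves. The level of SWEET11 over that of SWEET12 was 0.335 in roots, 1.02 in siliques, 3.24 in flowers and 4.44 in leaves. Their coding sequences were 82.3% identical and shared no window of 50 bases. Against leaves the difference in roots was -2.02 for SWEET11 and 1.59 for SWEET12.

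The 250 bases before the annotated start of both genes are shown because the pair differed in organ order, with those of SWEET9 and CWINV4, which were both high in flowers. They are from RefSeq (TAIR10.1), read 5′ to 3′ on the gene's strand, and capitals mark the core of the W-box, TTGAC, on either strand; the G-box CACGTG and the sugar response element TATCCA were searched too and not found in these 4 windows.
SWEET11, chr3:18054833-18055082, minus strand: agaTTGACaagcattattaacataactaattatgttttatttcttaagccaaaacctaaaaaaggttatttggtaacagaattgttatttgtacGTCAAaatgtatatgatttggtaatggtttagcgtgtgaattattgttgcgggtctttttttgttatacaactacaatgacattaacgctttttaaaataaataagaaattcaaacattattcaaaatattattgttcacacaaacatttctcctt
SWEET12, chr5:7973996-7974245, minus strand: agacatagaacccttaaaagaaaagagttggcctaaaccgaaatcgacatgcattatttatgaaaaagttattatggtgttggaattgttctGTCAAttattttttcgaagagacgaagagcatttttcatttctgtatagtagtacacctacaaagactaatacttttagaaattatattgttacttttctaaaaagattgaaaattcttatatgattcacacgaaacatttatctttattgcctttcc
SWEET9, chr2:16308363-16308612, minus strand: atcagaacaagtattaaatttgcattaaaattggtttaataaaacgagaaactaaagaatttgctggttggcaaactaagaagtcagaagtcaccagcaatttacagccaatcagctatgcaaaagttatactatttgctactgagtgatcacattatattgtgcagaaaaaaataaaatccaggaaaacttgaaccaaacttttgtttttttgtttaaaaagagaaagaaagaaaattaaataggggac
CWINV4, chr2:15178087-15178336, minus strand: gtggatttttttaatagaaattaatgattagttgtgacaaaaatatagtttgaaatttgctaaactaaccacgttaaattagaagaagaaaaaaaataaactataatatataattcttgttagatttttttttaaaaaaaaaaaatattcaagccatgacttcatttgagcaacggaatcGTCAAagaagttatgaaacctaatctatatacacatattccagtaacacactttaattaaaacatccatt
TTGAC stood in the windows of SWEET11, SWEET12 and CWINV4 and in 44.9% of the 27443 protein-coding promoters of that length. Over the 44 listed genes 20 windows (45.5%) held it, 7 (15.9%) held CACGTG, against 6.49% of all, and 7 (15.9%) held TATCCA, against 13.6%. CACGTG was found before SWEET4, SWEET5, SWEET6, SUC1, SUC2, SUC5 and STP7. A match says only that the letters are there.

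The other clade III genes were highest in flowers. SWEET9 (AT2G39060, chr2:16306688-16308252), the carrier that exports sucrose in nectaries, was listed at 0 in roots and leaves and had 1.23 FPKM in siliques and 79.5 FPKM in flowers. SWEET10 (AT5G50790, chr5:20656253-20658001) had 0.0103, 38.2 and 64.6 FPKM in roots, siliques and flowers against 0.167 FPKM in leaves. SWEET13 (AT5G50800, chr5:20665077-20667304) had 0.957, 3.73 and 45.8 FPKM in these sinks against 2.41 FPKM in leaves. SWEET13 and SWEET14 are also known as gibberellin carriers of anthers. SWEET14 (AT4G25010, chr4:12854385-12856541) had 0.371, 0.874 and 36.3 FPKM in roots, siliques and flowers and was listed at 0 in leaves. SWEET15 (AT5G13170, chr5:4181042-4183306), also known as the senescence gene SAG29 and as a sucrose carrier of seed filling, had 0.979, 10.3 and 19.0 FPKM in these sinks against 1.11 FPKM in leaves. Both senescence markers were highest in flowers, with a sum of 0.125 FPKM in roots, 29.5 FPKM in siliques, 116 FPKM in flowers and 1.89 FPKM in leaves. SAG12, the defining marker, was listed at 0 in roots and had 19.2 FPKM in siliques, 100.2 FPKM in flowers and 0.00852 FPKM in leaves. Their part in the SWEET15 values was not tested.

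Both genes of clade IV were lowest in flowers. SWEET16 (AT3G16690, chr3:5684359-5686490), a tonoplast sugar carrier, had 23.4 FPKM in roots, 3.31 FPKM in siliques, 0.324 FPKM in flowers and 12.5 FPKM in leaves, the only SWEET gene besides SWEET2 called lower in flowers than in leaves. SWEET17 (AT4G15920, chr4:9030517-9033522), the tonoplast fructose carrier, had 46.8, 49.4 and 27.6 FPKM in roots, siliques and flowers against 32.5 FPKM in leaves and was not called in any comparison as deposited. With median-of-ratios scaling it was called higher in siliques than in flowers (1.09). SWEET17 had the flattest levels of all 37 compared genes.

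The SUC family changed less in its sum, with 123 FPKM in roots, 211 FPKM in siliques, 180.0 FPKM in flowers and 130 FPKM in leaves. With median-of-ratios scaling the sums were 108, 221 and 155 FPKM in roots, siliques and flowers against 161 FPKM in leaves. Flowers thus stood above leaves only as deposited. SUC2 (AT1G22710, chr1:8030641-8033117), which loads sucrose into companion cells of the phloem, made up 66.8% of the leaf sum and 63.4% of the silique sum. It had 35.1 FPKM in roots, 134 FPKM in siliques, 65.8 FPKM in flowers and 86.8 FPKM in leaves. Its highest level was therefore in siliques, which are counted here as a sink. The 4 phloem markers summed to 84.6 FPKM in roots, 202 FPKM in siliques, 151 FPKM in flowers and 200 FPKM in leaves. Their part in the SUC2 levels was not tested, and in whole organs fewer cells of a type and less RNA per cell cannot be told apart. Of the 4, AHA3, the proton pump of companion cells, had 22.5, 107 and 77.3 FPKM in roots, siliques and flowers against 85.5 FPKM in leaves and was highest in siliques, as SUC2 was. The other 3 were highest in leaves: PP2-A1, a phloem lectin, had 77.5 FPKM in siliques against 84.8 FPKM in leaves. SEOR1, a sieve element protein, had 11.4 FPKM in siliques against 18.4 FPKM in leaves, and APL, a phloem regulator, 5.60 FPKM in siliques against 11.1 FPKM in leaves. SEOR1 and APL were lowest in siliques, the organ in which SUC2 was highest.

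SUC1 (AT1G71880, chr1:27054180-27056341), a sucrose carrier of roots and pollen, had 56.0 FPKM in roots, 25.6 FPKM in siliques, 79.9 FPKM in flowers and 29.5 FPKM in leaves, and was called higher in flowers than in leaves (1.41). With median-of-ratios scaling that difference was 0.90 and no longer called. SUC5 (AT1G71890, chr1:27058439-27060785), a carrier of the endosperm, had 0.0277, 23.1 and 9.92 FPKM in roots, siliques and flowers against 0.912 FPKM in leaves, a difference in siliques of 3.66. SUC3 (AT2G02860, chr2:828352-832455) had 19.8, 17.9 and 13.9 FPKM in these sinks against 8.46 FPKM in leaves. It was called in roots (1.14 as deposited, but 0.69 with median-of-ratios scaling) and was just short of a call in siliques (0.99). SUC3 had the narrowest spread of the family over the organs, and it and SUC4 were lowest in leaves.

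SUC6, SUC7, SUC8 and SUC9 were low and are close in sequence. Their coding sequences were 89.2% to 93.8% identical, and 9.44% of the 50-base windows of SUC6, 8.13% of those of SUC7, 17.5% of those of SUC8 and 1.12% of those of SUC9 occurred in the transcript of another gene. A stretch of 90 bases with a number of differences typical of these genes is shown from RefSeq (TAIR10.1), 5′ to 3′ on the coding strand, counted from the start codon, with capitals at the 12 positions where the 4 genes are not all the same.
SUC6, chromosome 5, coding bases 89 to 178: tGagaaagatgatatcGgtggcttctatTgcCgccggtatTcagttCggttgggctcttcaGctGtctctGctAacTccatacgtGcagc
SUC7, chromosome 1, coding bases 86 to 175: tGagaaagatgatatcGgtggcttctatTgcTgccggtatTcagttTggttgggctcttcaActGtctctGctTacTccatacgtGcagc
SUC8, chromosome 2, coding bases 89 to 178: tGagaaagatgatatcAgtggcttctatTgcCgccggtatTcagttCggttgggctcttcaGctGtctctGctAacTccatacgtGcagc
SUC9, chromosome 5, coding bases 89 to 178: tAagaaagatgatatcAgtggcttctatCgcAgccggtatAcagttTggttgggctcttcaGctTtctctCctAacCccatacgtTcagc
SUC7 (AT1G66570) was listed at 0 in roots and had 0.0567 FPKM in siliques and 0.254 FPKM in flowers against 1.56 FPKM in leaves, the only one of the 4 with its highest level in leaves. The authors' interval for the leaf value ran from 0 to 4.05 FPKM. SUC6, SUC8 and SUC9 were highest in flowers, at 0.236, 0.191 and 0.522 FPKM, and listed at 0 in leaves. The sources used here do not say how reads from shared windows were divided, and to that extent these levels are uncertain.

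The STP family had nearly the same sum in roots (370 FPKM), siliques (342 FPKM) and leaves (374 FPKM) and a lower one in flowers (259 FPKM), but different genes made it up. With median-of-ratios scaling the sums were 327 FPKM in roots, 358 FPKM in siliques, 224 FPKM in flowers and 463 FPKM in leaves, so the near equality of roots and leaves held only as deposited. STP1 (AT1G11260, chr1:3777328-3780337), a glucose carrier of guard cells and seedlings, made up 45.5% of the sum in roots, 34.4% in siliques, 20.1% in flowers and 77.6% in leaves. It had 169 FPKM in roots, 118 FPKM in siliques, 52.2 FPKM in flowers and 290.0 FPKM in leaves, the highest level of any of the genes in leaves. Its differences from leaves were -0.78 in roots, -1.30 in siliques and -2.45 in flowers, and the authors' intervals overlapped in all 3. STP4 (AT3G19930, chr3:6934773-6937120), a carrier of root tips and of wounded tissue, had 127, 24.0 and 24.6 FPKM in roots, siliques and flowers against 32.8 FPKM in leaves and was highest in roots.

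**Figure D4:**
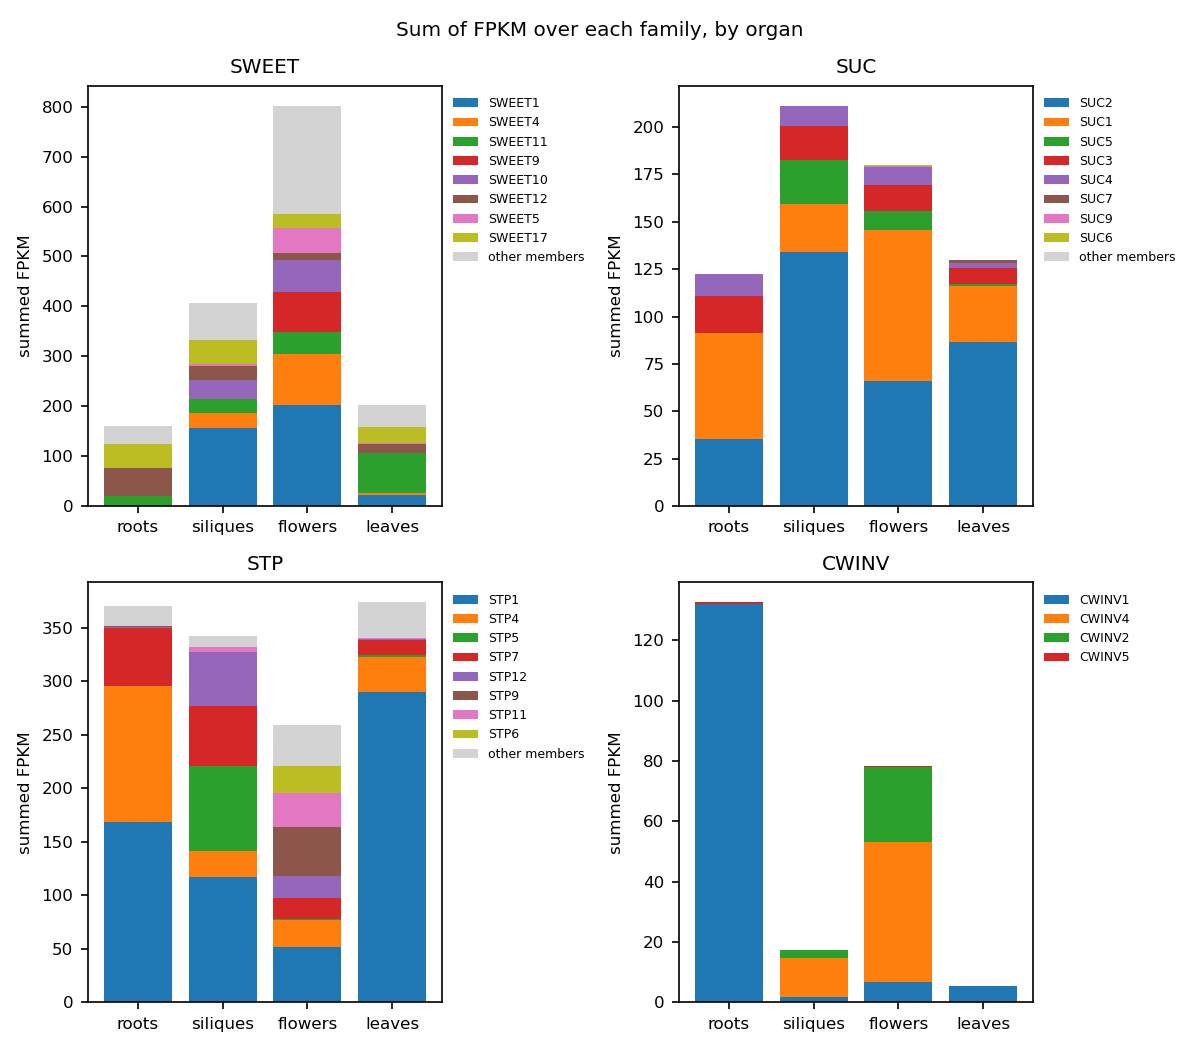
Summed FPKM of the SWEET, SUC, STP and CWINV genes in each organ (1 library each), stacked by gene, with the lowest genes pooled in light grey. The SWEET sum is highest in flowers (802 FPKM), the CWINV sum in roots (133 FPKM), and STP1 fills most of the STP sum in leaves (77.6%).

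STP3, STP13 and STP1 were the compared STP genes highest in leaves. STP3 (AT5G61520, chr5:24739026-24741273), a carrier of green tissue, had 0.0840 FPKM in roots, 0.850 FPKM in siliques, 8.80 FPKM in flowers and 13.3 FPKM in leaves. STP13 (AT5G26340, chr5:9243511-9247066), a hexose carrier induced in defence, had 18.9, 5.31 and 9.35 FPKM in roots, siliques and flowers against 20.1 FPKM in leaves, so roots and leaves were close to each other (difference -0.09). The joined locus of STP14, a galactose carrier, and AT1G77215 had 1.01, 34.3 and 12.2 FPKM in the same sinks against 34.8 FPKM in leaves, and the reads of the 2 genes were not separated.

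STP5, STP7, STP8 and STP12 were highest in siliques. STP5 (AT1G34580, chr1:12660551-12663870) had 0.00674 FPKM in roots, 79.4 FPKM in siliques, 1.17 FPKM in flowers and 2.0 FPKM in leaves, and was at least 4-fold above each other organ in siliques, as 2.82% of all compared loci were. The authors' interval in siliques, 10.8 to 148 FPKM, lay above those in flowers (0 to 3.74) and leaves (0 to 5.35). STP12 (AT4G21480, chr4:11431105-11435284) had 1.06, 50.8 and 21.0 FPKM in roots, siliques and flowers against 1.08 FPKM in leaves. These silique values stood beside seed coat markers that summed to 731 FPKM in siliques and at most 14.8 FPKM in another organ; their part was not tested. STP7 (AT4G02050, chr4:897430-900870), a carrier of pentoses, had 54.3, 55.9 and 19.2 FPKM in roots, siliques and flowers against 14.1 FPKM in leaves. STP8 reached 3.90 FPKM in siliques and at most 0.341 FPKM elsewhere. The loci of STP7 and STP12 overlap those of AT4G02040 and AT4G21470.

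The pollen STP genes were found almost only in flowers. STP2 (AT1G07340, chr1:2254822-2256850), active early in pollen development, had 0.00727, 0.0192 and 19.9 FPKM in roots, siliques and flowers against 0.00763 FPKM in leaves. STP6 (AT3G05960, chr3:1783587-1785334), of mature pollen, had 0.0114, 0.00809 and 25.5 FPKM in the same sinks against 0.0118 FPKM in leaves. STP9 (AT1G50310, chr1:18635802-18639621), a glucose carrier of pollen whose locus overlaps that of AT1G50320, had 0.126, 0.0963 and 45.4 FPKM in these sinks against 0.104 FPKM in leaves. All 3 were thus at or below 0.126 FPKM outside flowers. STP11 (AT5G23270, chr5:7838906-7841026), of pollen tubes, had 0.0220, 4.12 and 31.7 FPKM in roots, siliques and flowers against 0.191 FPKM in leaves and so was also measured in siliques. STP10, known from pollen tubes, stayed at 0.220 FPKM in flowers.

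Counted over all 37 compared genes, 10 were at least 4-fold above each of the other organs in flowers (27.0%, against 3.65% of all compared loci): SWEET3, SWEET5, SWEET9, SWEET13, SWEET14, STP2, STP6, STP9, STP11 and CWINV2. In roots 1 gene met this (CWINV1, 5.73% of all compared loci), in siliques 1 (STP5) and in leaves 0 (0.699%). The 6 pollen markers summed to 0.477 FPKM in roots, 49.3 FPKM in siliques, 956 FPKM in flowers and 0.202 FPKM in leaves. The 5 tapetum markers summed to 0.159, 1.38 and 1906 FPKM in roots, siliques and flowers against 0.575 FPKM in leaves. In leaves 4 of the 6 pollen markers and 3 of the 5 tapetum markers were listed at 0. How far the flower values follow the share of pollen and anther tissue was not tested.

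The cell wall invertases divided between roots and flowers. CWINV1 (AT3G13790, chr3:4532911-4535867), the main enzyme of vegetative organs, had 132 FPKM in roots, 1.79 FPKM in siliques, 6.67 FPKM in flowers and 5.43 FPKM in leaves, 24.4-fold higher in roots than in leaves on FPKM, and made up 99.7% of the family's sum in roots and 99.8% in leaves. CWINV4 (AT2G36190, chr2:15174730-15177870), needed for nectar, had 0.0105, 12.8 and 46.3 FPKM in roots, siliques and flowers against 0.00273 FPKM in leaves. CWINV2 (AT3G52600, chr3:19505629-19509390), of anthers and ovules, whose locus overlaps that of AT3G52590, was listed at 0 in roots and had 2.64 FPKM in siliques and 25.0 FPKM in flowers against 0.00256 FPKM in leaves. CWINV5 reached at most 0.492 FPKM, and 4.13% of its 50-base windows occurred in AT3G13782. The family's sum was 133 FPKM in roots, 17.3 FPKM in siliques, 78.5 FPKM in flowers and 5.44 FPKM in leaves, lowest in the source organ.

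CWINV4 and SWEET9 act in the same step of nectar secretion, sucrose export and its cleavage outside the cell. Both were higher in flowers than in leaves, with differences of 5.56 for CWINV4 and 6.33 for SWEET9. In siliques CWINV4 stood at 3.79 above leaves and SWEET9 at 1.16. The 2 genes listed as nectary markers were CRC, which also marks carpels, and TPS21, a floral terpene synthase better known from stigmas. CRC had 28.0 FPKM in flowers and at most 0.0583 FPKM elsewhere, and TPS21 had 55.9 FPKM in flowers and at most 0.680 FPKM elsewhere. Both were listed at 0 in roots, and their part in the values of CWINV4 and SWEET9 was not tested.

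Siliques were compared with flowers, the earlier stage on plants of the same age and medium. Of the 37 genes 8 were higher in siliques (21.6%, against 8.42% of all compared loci) and 16 lower (43.2%, against 13.5%), with a median of -0.71 against -0.19 over all compared loci. Higher were the sucrose carriers SUC2 (1.01) and SUC5 (1.14), the STP genes STP1 (1.16), STP5 (5.21), STP7 (1.49), STP8 (1.87) and STP12 (1.24), and SWEET16 (1.70). The 16 lower genes were 7 SWEET genes, SUC1, 5 STP genes and the 3 compared invertases, and the largest differences were those of STP9 (-5.40), SWEET9 (-5.18) and SWEET3 (-4.92). At 4-fold 1 gene, STP5, was higher (3.63% of all compared loci) and 11 were lower (4.94%). With separate intervals STP5 alone was called higher (0.166% of all compared loci) and 0 genes lower (0.226%). SWEET1, SWEET7 and SWEET10 kept similar levels in both organs, with differences of -0.38, 0.25 and -0.75. With median-of-ratios scaling 10 genes were higher (10.4% of all compared loci) and 16 lower (10.6%).

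In 4 places members lie next to each other on a chromosome, and the neighbours differed in level in at least 1 organ each time. SUC1 and SUC5 lie 2097 bases apart on chromosome 1, with 83.6% identical coding sequences. SUC1 had 56.0 FPKM in roots where SUC5 had 0.0277 FPKM, but in siliques they were close, at 25.6 and 23.1 FPKM. STP4 and STP10 lie 1090 bases apart on chromosome 3, and in roots STP4 had 127 FPKM and STP10 0.0447 FPKM. CWINV5 and CWINV1 lie 2241 bases apart on that chromosome, with 0.352 and 132 FPKM in roots. SWEET10 and SWEET13 lie 7075 bases apart on chromosome 5: in siliques SWEET10 had 38.2 FPKM and SWEET13 3.73 FPKM, while in flowers they were closer, at 64.6 and 45.8 FPKM.

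Close relatives in sequence were highest in different organs in some pairs and in the same organ in others. STP6 and STP8, with 81.5% identical coding sequences, were highest in different organs: STP6 had 0.00809 FPKM in siliques and 25.5 FPKM in flowers, and STP8 had 3.90 FPKM in siliques and 0.341 FPKM in flowers. SWEET13 and SWEET14, at 79.0% identity, were both at least 4-fold above every other organ in flowers. STP9 and STP10, at 80.3%, both had their highest level in flowers, at 45.4 and 0.220 FPKM. No member other than SUC6 to SUC9, STP1 (1 window) and CWINV5 shared a 50-base window with another annotated transcript. The median organ specificity (tau, from 0 for equal levels to 1 for a single organ) of the 37 compared genes was 0.66, and that of all compared loci 0.24. By family it was 0.66 for the compared SWEET, 0.19 for SUC, 0.73 for STP and 0.77 for the compared CWINV genes. The SUC value covers 6 of the 9 genes: tau was 0.97 for SUC6, 0.96 for SUC8 and 0.93 for SUC9, which did not pass the filter, and 0.90 for SUC7, which did.

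Other genes of sucrose use were taken from a list of 32, of which 30 had a row of their own and were compared. In roots 12 were higher than in leaves (40.0%, against 23.6% of all compared loci) and 7 lower (23.3%, against 13.4%). In siliques 8 were higher (26.7%, against 16.9%) and 0 lower (8.4%), and in flowers 11 were higher (36.7%, against 21.6%) and 0 lower (7.79%). The 12 higher in roots were SUS1, SUS3, SUS4, SUS5, SUS6, VAC-INV1, CINV1, SPS2F, SPP1, TST1, CWINV6 and HXK1, of which the first 7 split sucrose inside the cell. Of the 6 sucrose synthases, which cleave sucrose with UDP, 5 were higher in roots than in leaves: SUS1 had 101 FPKM in roots, 52.4 FPKM in siliques, 94.1 FPKM in flowers and 6.30 FPKM in leaves, and SUS4 had 38.6, 13.4 and 0.521 FPKM in these sinks against 0.281 FPKM in leaves. The vacuolar invertase gene AT1G62660 (VAC-INV1) had 101, 14.7 and 20.2 FPKM in roots, siliques and flowers against 6.63 FPKM in leaves. The cytosolic invertase CINV1 had 195, 44.2 and 48.3 FPKM in these sinks against 70.7 FPKM in leaves. These 4 genes were highest in roots, as were 39.3% of all compared loci. The other sucrose synthases SUS2, SUS3, SUS5 and SUS6 were highest in roots too, at 1.41, 12.9, 4.77 and 8.38 FPKM. The sister genes of VAC-INV1 and CINV1 were not. VAC-INV2 had 25.7, 86.7 and 108 FPKM in roots, siliques and flowers against 56.2 FPKM in leaves and was called lower in roots (-1.10). The cytosolic invertase CINV2 had 8.5, 11.7 and 25.4 FPKM in the same sinks against 12.3 FPKM in leaves and was lowest in roots.

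**Figure D5:**
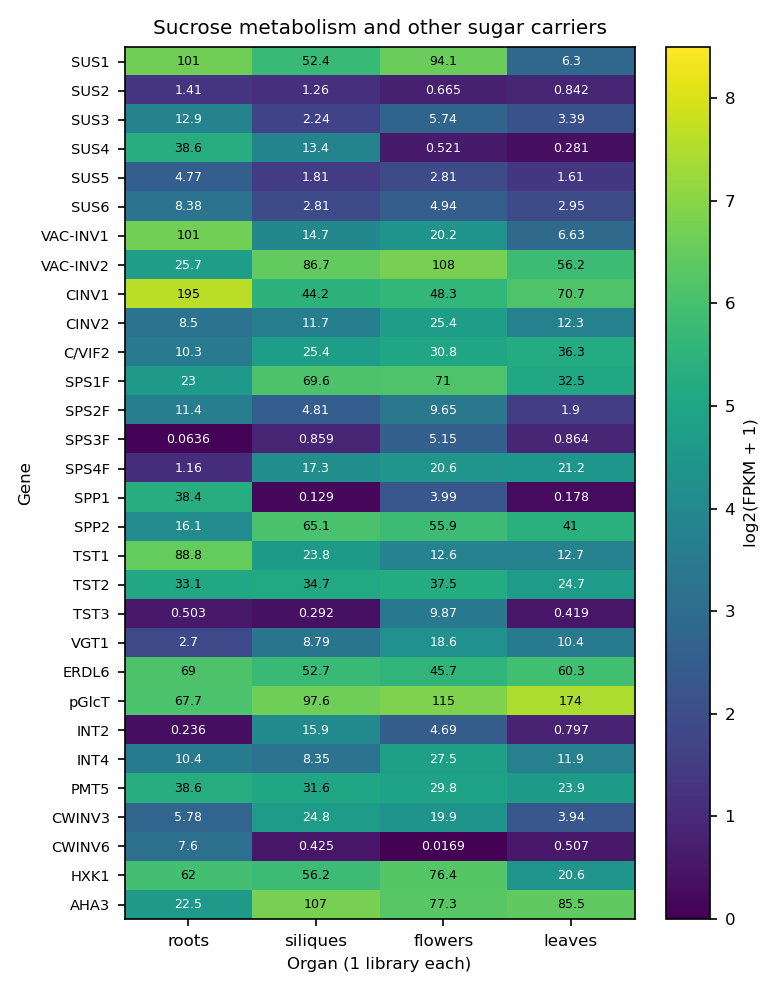
FPKM of 30 other genes of sucrose metabolism and sugar transport (rows) in the 4 organs (columns, 1 library each), with the value in each cell and log2(FPKM + 1) as colour. SUS1, VAC-INV1, CINV1 and TST1 are brightest in roots, and the plastid glucose exporter pGlcT in leaves (174 FPKM).

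Genes of sucrose synthesis split by isoform. SPS4F, a sucrose phosphate synthase of leaves, had 1.16 FPKM in roots, 17.3 FPKM in siliques, 20.6 FPKM in flowers and 21.2 FPKM in leaves. SPP1, a sucrose phosphatase, had 38.4, 0.129 and 3.99 FPKM in roots, siliques and flowers against 0.178 FPKM in leaves. SPP1 and SPS4F were the genes of this list whose intervals in roots and leaves did not overlap. By contrast SPP2 had 16.1, 65.1 and 55.9 FPKM in these sinks against 41.0 FPKM in leaves. The tonoplast carrier TST1 had 88.8, 23.8 and 12.6 FPKM in roots, siliques and flowers against 12.7 FPKM in leaves, while TST2 varied between 24.7 and 37.5 FPKM. INT2, an inositol carrier, had 0.236, 15.9 and 4.69 FPKM in roots, siliques and flowers against 0.797 FPKM in leaves. The plastid translocator pGlcT was lowest in roots, at 67.7 FPKM, against 174 FPKM in leaves.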

How the data were processed

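RNA of 4 Arabidopsis organs was sequenced, 1 library each. TopHat, Cufflinks and the build TAIR10 are named by the submitters' processing notes, without versions. As its header shows, the table that the authors deposited holds an FPKM, the ends of an interval and a status for each locus and library. Scaling between libraries and the division of reads shared by several genes are not stated, and the library kit named in the labels gives no stated strand.

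From this table, 217 loci without a usable status in all organs and loci under 1 FPKM in every organ were left out, leaving 23477. Differences were taken on log2(FPKM + 1), with no test and no p-value since organs have no replicates. Alternatives were pseudocounts of 0.1 and 5 FPKM, no filter or one at 5 FPKM, and median-of-ratios scaling. Fragments per kilobase at 1 FPKM were read from loci of genes with 1 exon whose upper interval end was 3 times the value (tolerance 0.001), taken as 1 fragment. On simulated data the rules recovered changes well above the 2-fold line in loci of high level with little noise. That checks the code only, and not calls on low genes, calls near the line or the spread between real libraries.

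Table starts lay 1 base below the annotated start for 10328 loci and equal to it for 173, so 1 was added. All 43 genes overlapped their annotation in TAIR10.1, which gave sequences. Coding sequences were aligned with MAFFT 7.526 in place of the planned proteins, and tables were handled with Python 3.11.15 and pandas 2.3.3. Any of the 44 genes, and any gene of the related and marker lists, could be named, and those reaching 10 FPKM were to be given in full. Members and lists were chosen with earlier results of these data known.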

Additional observations from a re-analysis of the deposited data

How the results depend on the processing

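No paired analysis was possible because each organ has 1 library and no test was made. Over the 4 comparisons the genes were called 90 times. With median-of-ratios scaling 88 calls kept their direction and side of the 2-fold line, and with a pseudocount of 5 FPKM 70 did. All 90 did with a pseudocount of 0.1 FPKM and without a filter on low values. With a filter at 5 FPKM all 85 calls of the genes that enter did. These full counts were fixed in advance, because a smaller pseudocount only enlarges differences and a filter leaves them unchanged. No call (0) turned its direction under any of these 5 alternatives, but only median-of-ratios scaling could have turned one. A pseudocount of 5 FPKM left 5 genes lower in roots than in leaves, 3 lower in flowers than in leaves and 4 higher in siliques than in flowers, since by construction it shrinks differences of low genes. Among the 20 calls it ended were those of SUC7 in all 3 sinks, of CWINV1 in siliques against leaves and against flowers, and of SUC4 in flowers. A pseudocount of 0.1 FPKM added 12 calls, among them SUC5 in roots over leaves (-2.99). Median-of-ratios scaling ended 2 calls (SUC3 in roots and SUC1 in flowers) and added 7, among them STP1 in roots (-1.26) and SWEET11 in flowers (-1.38), both lower than in leaves; the cause was not tested. The same scaling left 4 genes in place of 6 with their highest level in roots, and 10 in place of 8 in siliques. The shares of all compared loci were not worked out for that count. Single libraries and wide intervals limit all of these values.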

Other observations

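At 6 of the genes another locus of the deposited table lay on the same stretch, and strand is not given, so reads of the overlap cannot be told apart. The locus of CWINV2 overlapped that of AT3G52590, which had 531 FPKM in roots, 387 FPKM in siliques, 535 FPKM in flowers and 335 FPKM in leaves, while CWINV2 was listed at 0 in roots and had 0.00256 FPKM in leaves. The locus of STP9 overlapped that of AT1G50320, which had 21.1, 69.8 and 42.2 FPKM in roots, siliques and flowers against 112 FPKM in leaves, an order unlike that of STP9. STP7 overlapped AT4G02040, at 1.36 to 5.30 FPKM, and STP12 overlapped AT4G21470, at 19.1 to 27.5 FPKM. SWEET5 overlapped AT5G62848, listed at 0 in every organ, and CWINV5 the joined locus of AT3G13780 and AT3G13782, at 5.98 to 14.7 FPKM.

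The fructan hydrolases CWINV3 and CWINV6 belong to the invertase family by sequence and act on fructans. CWINV3 had 5.78 FPKM in roots, 24.8 FPKM in siliques, 19.9 FPKM in flowers and 3.94 FPKM in leaves. CWINV6 had 7.60, 0.425 and 0.0169 FPKM in roots, siliques and flowers against 0.507 FPKM in leaves, so that CWINV6 shared its highest organ with CWINV1.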
